A study of Homo sapiens with 6 samples.

Results

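The matricellular genes of UE7T-9 cells were compared between control and SRRM4 KO cells. These genes are 4 thrombospondins (THBS1, THBS2, THBS3 and THBS4), the tenascins TNC and TNXB, POSTN (periostin), and SPARCL1, SMOC1 and SMOC2 of the SPARC family. The 10 members were chosen by gene symbol, with earlier results of these data known, and are 10 of the 58735 genes in the count table. Lists used below were also chosen so, and the shares of all tested genes beside member and list counts are for description only. UE7T-9 is an established line of human bone marrow mesenchymal stem cells (MSCs). The 3 control libraries carry the genotype WT, and the methods do not say whether they were cloned. Whether they were exposed to lentivirus is not clear from the sources used here. The 3 SRRM4 KO libraries come from UE7T-9 cells transduced by lentivirus with CRISPR v2 and a guide against SRRM4, a neuronal splicing factor, and then diluted to a single cell per well, so the KO group is 1 clonal line. The study states that a complete loss of the SRRM4 protein was not obtained in it. Cells of both groups were kept in DMEM, and the study asks what helps MSCs to enter decellularized bone. The comparison shows which RNAs differ between the SRRM4 KO line and UE7T-9. Because group and clone coincide, the effect of the guide and a difference between clone and parent population cannot be told apart.

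Matricellular proteins are secreted into the extracellular matrix but act mainly on cells rather than as a structural scaffold. They bind integrins, other surface receptors, growth factors and matrix fibres, and are known for their activity in bone, tendon, wounds and tumour stroma. THBS1 and THBS2 form trimers and carry type 1 repeats that bind CD36, while THBS3 and THBS4 form pentamers without these repeats. THBS1 can activate latent TGF-beta. TNC is an adhesion-modulating tenascin of embryonic tissue and wounds, TNXB a tenascin of elastic connective tissue, and POSTN a fasciclin-domain protein of bone and periodontal ligament. SMOC1 and SMOC2 are calcium-binding relatives of SPARC, and SMOC1 is known as an antagonist of BMP signalling.

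SRRM4 itself had 0 counts in each of the 6 libraries, so its RNA level cannot serve as a check on the labels. The libraries held 21496117 to 23868323 counts, and the limit that a count of 0 allows (3 counts) lay between 0.123 and 0.139 CPM (counts scaled to a common library total by TMM). Such a limit accounts for counting error alone. Replicates differed by more than sampling noise, with a chi-square per degree of freedom of 5.06 to 23.5 over the pairs within a group, and more genes had counts in control replicate 1 (22403) than in control replicates 2 and 3 (20613 and 20674). The labels do not say whether libraries of a group came from separate cultures, so the p-values measure the spread between these libraries, which may be technical. All 9 mesenchymal stem cell markers passed the low-count filter, and of these 0 were called higher and 4 lower by the rule given with the members (all genes 5.45% and 7.14%), with a median log2 fold change of -0.59. THY1 (-2.43), CXCL12 (-2.28), PDGFRB (-2.14) and COL1A1 (-1.23) were called lower. NT5E (0.52), ALCAM (0.51) and VIM (0.36) were higher and MCAM (-0.59) and ENG (-0.34) lower at an adjusted p under 0.05 alone. Endothelial markers summed to 22.5 to 26.1 CPM in control, mostly from TEK and KDR, and to 4.43 to 5.86 CPM in KO libraries, mostly from KDR. On average TEK went from 13.7 to 0.99 CPM and KDR from 9.42 to 3.11 CPM. The defining markers PECAM1 and CDH5 had 3 counts or fewer in every library. Epithelial markers summed to 97.4 to 119 CPM in control and 101 to 108 CPM in KO libraries, mostly from KRT18, with EPCAM at 2 counts or fewer. Haematopoietic markers summed to 20.1 to 21.5 and 17.9 to 20.96 CPM, mostly from CD14, with PTPRC at 2 counts or fewer. Schwann and glial markers reached at most 5.89 CPM in control and 3.04 CPM in KO libraries, with SOX10 at 4 counts or fewer. The part of these markers in the results that follow was not tested.

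The promoters of the 2 members that rose, of the member that fell most and of the most abundant member are given here, so that the changes can be set beside the sequence in front of each gene. Each is the 250 bases before the RefSeq start (GRCh38.p14), read along the gene from 5′ to 3′. Capitals mark matches on either strand to a TATA box (TATAAA), a GC box (GGGCGG), a SMAD element (CAGAC), a BMP SMAD element (GGCGCC), an AP-1 element (TGAGTCA) or a TEAD element (CATTCC).

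SMOC1, chr14:69879166-69879415, plus strand: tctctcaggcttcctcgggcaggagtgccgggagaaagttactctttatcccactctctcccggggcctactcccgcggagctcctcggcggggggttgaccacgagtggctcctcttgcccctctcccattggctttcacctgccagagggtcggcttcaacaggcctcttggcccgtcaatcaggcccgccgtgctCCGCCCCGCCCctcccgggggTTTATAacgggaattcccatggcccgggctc

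TNC, chr9:115118158-115118407, minus strand: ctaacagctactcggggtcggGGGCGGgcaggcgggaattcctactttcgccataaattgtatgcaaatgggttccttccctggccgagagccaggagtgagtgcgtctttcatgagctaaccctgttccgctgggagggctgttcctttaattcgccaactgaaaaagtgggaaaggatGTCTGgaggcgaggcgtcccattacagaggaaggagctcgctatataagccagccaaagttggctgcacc

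POSTN, chr13:37598769-37599018, minus strand: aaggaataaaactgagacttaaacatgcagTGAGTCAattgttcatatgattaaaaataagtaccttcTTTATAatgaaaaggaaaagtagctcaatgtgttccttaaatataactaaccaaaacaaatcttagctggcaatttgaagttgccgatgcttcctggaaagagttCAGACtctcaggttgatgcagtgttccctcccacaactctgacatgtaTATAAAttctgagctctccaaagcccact

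THBS1, chr15:39580829-39581078, plus strand: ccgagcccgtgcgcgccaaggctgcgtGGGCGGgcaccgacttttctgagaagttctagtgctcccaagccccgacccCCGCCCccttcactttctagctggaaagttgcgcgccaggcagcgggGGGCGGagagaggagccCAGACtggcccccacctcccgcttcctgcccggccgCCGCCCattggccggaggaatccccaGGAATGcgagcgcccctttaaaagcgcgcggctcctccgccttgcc

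The POSTN window held a TATA box 29 bases before the start, another on the reverse strand at 182, a SMAD element and an AP-1 element, and it was poor in G and C (36.4%, against a median of 58.0% over 35116 promoters). Over all promoters of this length 10.7% held the TATA box and 4.20% the AP-1 element. The SMOC1 window held a reverse TATA box at 31 bases and a pair of reverse GC boxes at 52 and 47 bases that share a base. The TNC window held a GC box at 229 and a reverse SMAD element at 70 bases, motifs that occurred in 42.6% and 38.0% of promoters. THBS1 had 4 GC boxes, a SMAD element and a reverse TEAD element, the last found in 11.9% of promoters. The BMP SMAD element, in 16.4% of promoters, matched none of these 4 windows. The annotated first base in GENCODE 29 is the RefSeq start for THBS1, lies 100 bases before it for TNC and 76 bases for POSTN, and lies 25285 bases before it for SMOC1, which has a further upstream start. A match describes letters only. It was not tested for binding.

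Of the 10 members, 8 passed the filter on low counts and were tested, and the groups did not overlap in any of the 8. SMOC1 and TNC were called higher in SRRM4 KO cells. POSTN, TNXB, THBS3 and THBS4 were called lower, and THBS2 and THBS1 were lower by less than the fold change threshold. A call needed a log2 fold change past 1 in either direction together with a Benjamini-Hochberg p below 0.05 (edgeR, quasi-likelihood test, 15341 genes). By this rule 5.45% of all tested genes were called higher and 7.14% lower, 12.6% in all. All 8 members had an adjusted p under 0.05, which 41.6% of tested genes had, and 51.8% of tested genes had groups that did not overlap. The median log2 fold change was -1.28 over the 8 members and -0.01 over all tested genes. THBS4 passed the filter only through its control libraries, so it had to be lower to be tested. Without it 5 of 7 members were called, and the middle log2 fold change of the 7 was that of THBS2 (-0.93). The counts of adjusted p and of groups without overlap over the 8 members include THBS4. In a bulk culture, fewer cells with a transcript and less RNA per cell cannot be told apart.

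**Figure D1:**
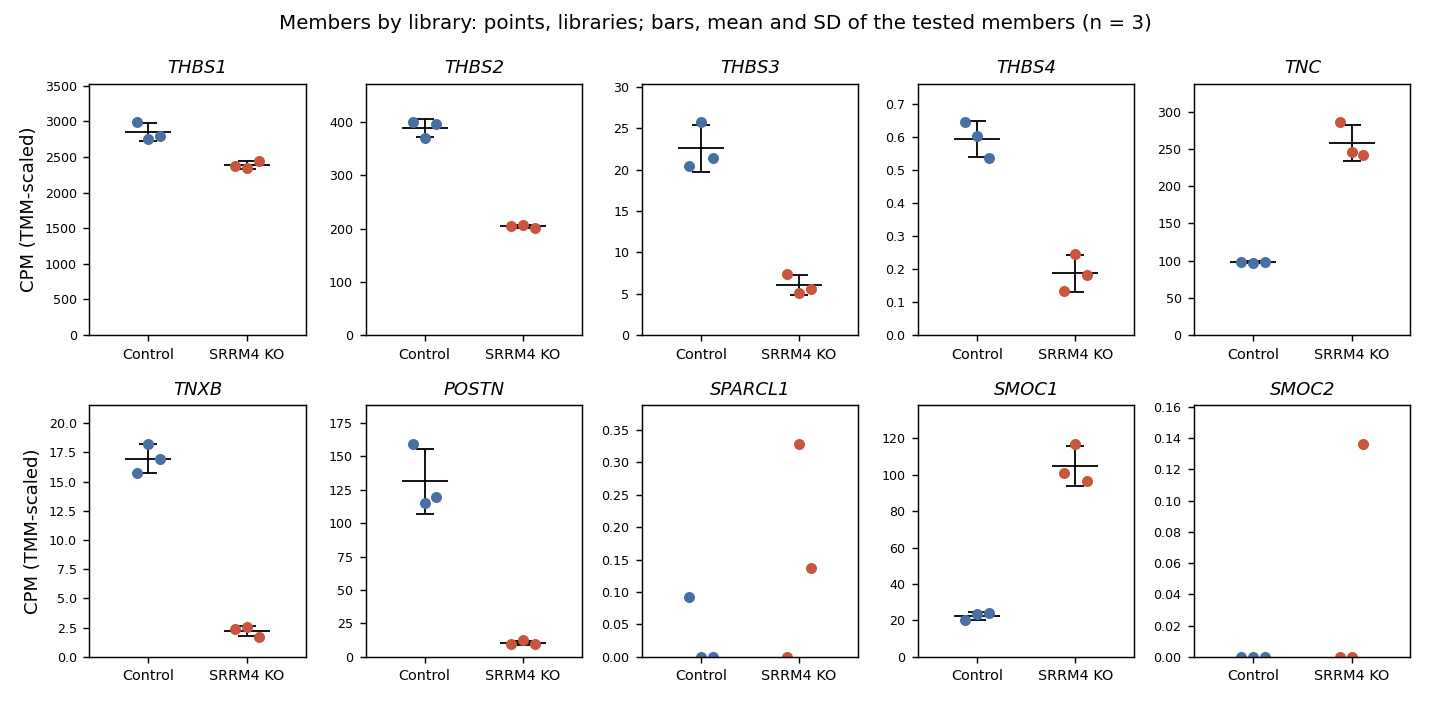
CPM of each member (vertical axis, from 0, its own scale per panel) in the 3 control and 3 SRRM4 KO libraries, with the mean and SD for the 8 tested members. In each tested member the groups lie apart, with SMOC1 and TNC higher and 6 members lower in KO cells, while SPARCL1 and SMOC2 stay at 8 counts or fewer in every library.

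THBS1 (ENSG00000137801; chromosome 15, 39581079 to 39599466, plus strand, GRCh38) was the most abundant member. It had 64825, 59207 and 62444 counts in control replicates 1 to 3 and 52749, 57078 and 53862 in KO replicates 1 to 3. The KO libraries were all lower on the CPM scale, at 2386 ± 54.5 against 2845 ± 128 CPM (SD, n = 3). On the log2 scale the difference was -0.25 (standard error 0.058, adjusted p = 0.00263), 1.19-fold and under the fold change threshold. THBS1 alone made up 79.5% to 81.5% of the summed CPM of the 10 members, in control and KO libraries alike. That sum ran from 3398 to 3705 CPM in control and from 2934 to 3005 CPM in KO libraries.

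THBS2 (ENSG00000186340; chromosome 6, 169215780 to 169254044, minus strand), the other trimeric thrombospondin, had 400.4, 371 and 396 CPM in control and 205, 207 and 201 CPM in KO libraries. Its KO libraries lay close together and far below control, 1.90-fold on average (log2 fold change -0.93, standard error 0.074, adjusted p = 1.07e-07). This falls just short of the threshold of 1, and with the chromosome median subtracted the value was -1.03, past it. The ratio of THBS1 to THBS2 in levels per gene length (RPKM, CPM per kilobase) went from 5.12 ± 0.154 to 8.17 ± 0.299 (SD, n = 3). That ratio is taken within each library and does not depend on library scaling.

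THBS3 (ENSG00000169231; chromosome 1, 155195588 to 155209051, minus strand), a pentameric thrombospondin found in developing skeleton, had 20.5, 25.7 and 21.4 CPM in control. In the KO libraries it had 7.41, 5.09 and 5.59 CPM. It fell 3.74-fold (log2 fold change -1.90, standard error 0.17, adjusted p = 2.98e-07), and no KO library reached the lowest control library. Its exons share 25.4% of their bases with genes on the opposite strand, and the libraries are non-stranded. Those genes are MTX1, with a log2 fold change of 0.12 (adjusted p = 0.673), and the antisense gene AC234582.1, with 21 counts or fewer in every library.

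THBS4 (ENSG00000113296; chromosome 5, 79991311 to 80083287, plus strand), the other pentameric form, known from tendon and muscle, was near the detection limit. It had 14, 13 and 12 counts in control and 3, 6 and 4 in KO libraries. The call was narrow (log2 fold change -1.63, standard error 0.62, adjusted p = 0.0469). It was lost when any of the 6 libraries was left out (adjusted p from 0.0822 to 0.157), with the DESeq2 test (0.089) and without a filter (0.20), and THBS4 could not be tested where every library needed 10 counts.

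TNC (ENSG00000041982; chromosome 9, 115019578 to 115118257, minus strand) rose. Its control libraries were nearly equal at 98.6, 97.1 and 98.7 CPM, and its KO libraries stood at 286, 246 and 242 CPM. The rise was 2.63-fold (log2 fold change 1.40, standard error 0.087, adjusted p = 7.74e-09). The tested genes on its chromosome had a median log2 fold change of -0.24, and those within 5 Mb of it -0.27, opposite in sign to TNC.

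TNXB (ENSG00000168477; chromosome 6, 32041153 to 32115334, minus strand) went the other way. It had 15.7, 18.2 and 16.9 CPM in control and 2.38, 2.59 and 1.73 CPM in KO libraries, and fell 7.56-fold (log2 fold change -2.92, standard error 0.18, adjusted p = 9.08e-09). Every KO library was far below every control library. TNXB has a partial copy, TNXA, with 7 counts or fewer in each library, and how reads matching both were counted is not known. Its neighbour ATF6B, which shares 71 exonic bases with it, had a log2 fold change of -0.01 (adjusted p = 0.968). Within libraries the RPKM of TNC was 10.3, 8.79 and 9.64 times that of TNXB in control and 199, 157 and 231 times in SRRM4 KO cells.

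POSTN (ENSG00000133110; chromosome 13, 37562583 to 37598844, minus strand) fell most among the members. It had 3455, 2480 and 2675 counts in control and 211, 300 and 211 in KO libraries, or 159, 115 and 119.9 CPM against 9.47, 12.3 and 9.59 CPM. The highest KO library was far below the lowest control library. The fall was 12.5-fold (log2 fold change -3.65, standard error 0.15, adjusted p = 7.92e-11). Control replicate 1, in which the most genes had counts, also had the highest POSTN level, and without it the log2 fold change was -3.49. The tested genes on the chromosome of POSTN had a median log2 fold change of -0.27.

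SMOC1 (ENSG00000198732; chromosome 14, 69854131 to 70032366, plus strand) rose most among the members. Its counts were 434, 508 and 535 in control and 2251, 2852 and 2124 in KO libraries, or 22.5 ± 2.18 and 105 ± 10.8 CPM (SD, n = 3). Each KO library held more than 4 times the CPM of any control library. The rise was 4.66-fold (log2 fold change 2.22, standard error 0.11, adjusted p = 6.62e-10). Its exons share no bases with another gene. Within libraries the RPKM of SMOC1 was 0.221 ± 0.056 times that of POSTN in control and 12.6 ± 0.727 times in SRRM4 KO cells (SD, n = 3).

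The remaining SPARC relatives were barely detected. SMOC2 (ENSG00000112562; chromosome 6, 168441151 to 168673445, plus strand), a close relative of SMOC1, had 0 counts in 5 libraries and 3 in KO replicate 3. SPARCL1 (ENSG00000152583; chromosome 4, 87473335 to 87531061, minus strand), also called hevin, had 2, 0 and 0 counts in control and 0, 8 and 3 in KO libraries. Neither passed the filter on low counts, so neither was tested.

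**Figure D2:**
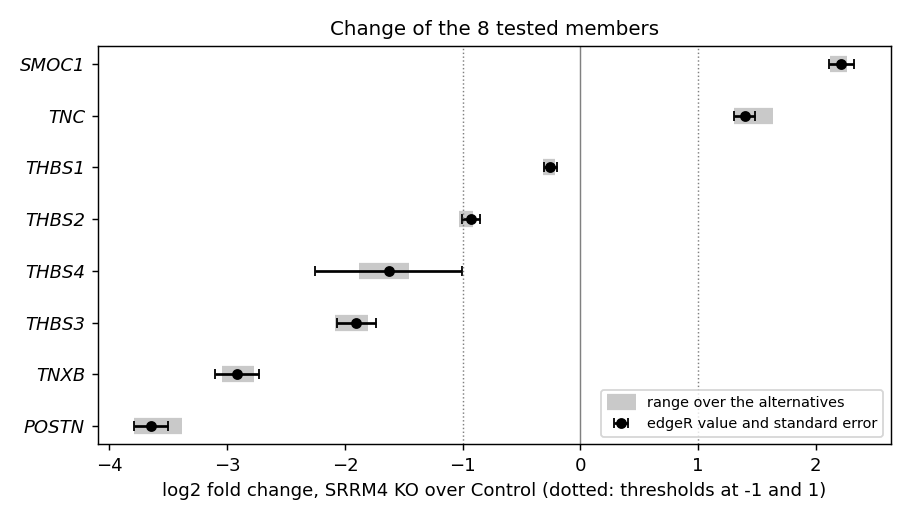
Log2 fold change of SRRM4 KO over control (horizontal axis) for the 8 tested members, with the standard error from edgeR as a line and the range over the alternative settings as a grey bar. SMOC1 and TNC lie right of 1, THBS1 and THBS2 between -1 and 0 except that the bar of THBS2 crosses -1, and THBS4 has the widest error (0.62).

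Levels can be compared between members per gene length. In control cells the mean RPKM ran from THBS1 (311) through THBS2 (60.7), POSTN (24.1), TNC (10.2), SMOC1 (5.15), THBS3 (4.88) and TNXB (1.07) to THBS4 (0.129). Neighbours in this order did not overlap between libraries, except SMOC1 and THBS3. In SRRM4 KO cells the order was THBS1 (261), THBS2 (31.9), TNC (26.8), SMOC1 (24.01), POSTN (1.91), THBS3 (1.30), TNXB (0.140) and THBS4 (0.041). Here TNC and SMOC1 overlapped. SPARCL1, at 0.045 RPKM, overlapped THBS4. POSTN went from the third to the fifth place, and TNC and SMOC1 moved ahead of it. The RPKM of POSTN was above that of 88.5% of tested genes in control and of 34.2% in SRRM4 KO cells, and the same share for SMOC1 went from 54.8% to 87.9%. The deposited gene length equals the summed exons of each member in GENCODE 29, and a shift in transcript use would change these levels. Gene counts do not show which isoform of TNC or POSTN, both known for alternative splicing, was made.

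**Figure D3:**
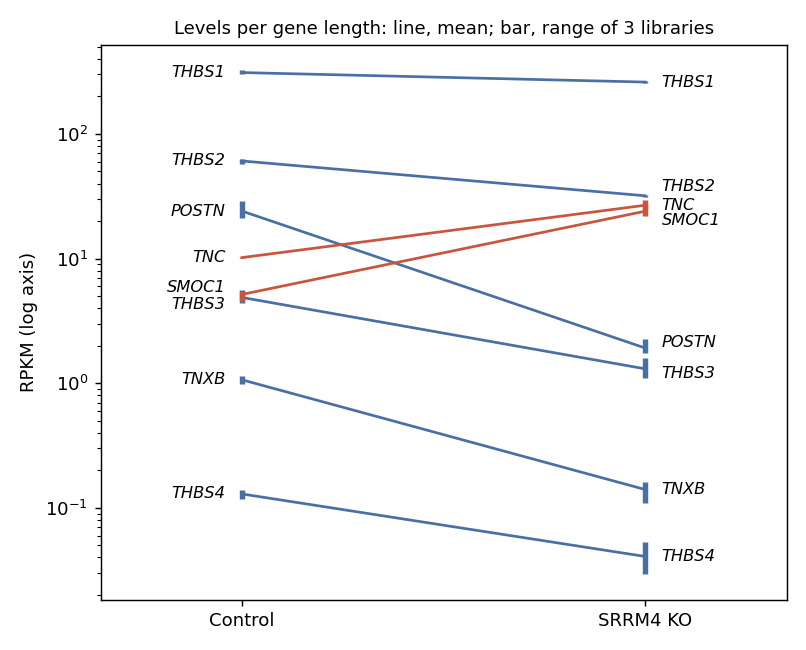
RPKM (vertical log axis) of the 8 tested members in control and SRRM4 KO cells, with lines joining the means and thick bars for the range of the 3 libraries. The lines of TNC and SMOC1 (red, higher in KO) cross that of POSTN (blue, lower in KO).

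The tested genes with at least 100 counts on average whose log2 CPM followed a called member most closely over the 6 libraries were found among 11248 genes. The closest were KIF20A (Pearson's r = 0.9997) and MGAT5B (0.9995) for SMOC1, FMNL3 (0.999) and LIMD1 (0.998) for TNC, and MR1 (0.9999) and LAMP1 (0.999) for POSTN. For TNXB they were VAT1 and TPRG1L (both 0.9999), for THBS3 STAT2 and RNF185 (both 0.998), and for THBS4 AKTIP and TRMT9B (both 0.996). With 2 groups, a gene that differs between them in the same direction as the member scores high. Between 778 and 1204 genes had r over 0.95 with each member. The value is scale-free, so VAT1, with a log2 fold change of -0.76, followed TNXB.

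Matricellular relatives outside the 10 members were read from the same fit. Of 16 such genes 11 were tested, 2 were called higher and 3 lower (5.45% and 7.14% of all tested genes), with a median log2 fold change of -0.66. SPP1 (osteopontin, a bone sialoprotein that binds integrins) had 400, 428 and 419 counts in control and 2416, 2792 and 2796 in KO libraries (log2 fold change 2.62, standard error 0.10). NOV (CCN3) had 57.8 ± 8.27 and 117 ± 9.24 CPM (SD, n = 3). Its log2 fold change was 1.01, and under the threshold without control replicate 2 (0.91), KO replicate 2 (0.98) or KO replicate 3 (0.97). SPOCK1, a testican of the SPARC family, fell (log2 fold change -2.11), as did the CCN genes WISP1 (-3.15) and WISP2 (-3.49). SPARC itself had 4119 ± 64.0 CPM in control and 2302 ± 22.8 CPM in KO libraries (SD, n = 3; log2 fold change -0.84, adjusted p = 1.03e-08), and FSTL1 also had a log2 fold change of -0.84. Within the SPARC family SMOC1 was the tested member with a value above 0, while SPARC, FSTL1, SPOCK1 and SPOCK3 (-0.19, adjusted p = 0.75) had values below it. TGFBI, the nearest relative of POSTN, had 160 ± 4.21 CPM in control and 261 ± 6.38 CPM in KO libraries (SD, n = 3; log2 fold change 0.71, adjusted p = 2.26e-06). The tenascins TNR and TNN and the pentameric COMP had 5 counts or fewer in every library.

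All 16 receptors listed for these proteins were tested, with 3 called higher, 2 lower (5.45% and 7.14% of all tested genes) and a median log2 fold change of 0.09. The higher genes were integrin subunits. ITGB3 had 296, 280 and 295 counts in control and 1277, 1398 and 1205 in KO libraries (log2 fold change 2.09). ITGA2 had a log2 fold change of 1.33, and ITGA3 one of 1.03, which was 0.95 without control replicate 1 and 0.83 with the chromosome median subtracted. PTPRZ1, a receptor phosphatase that binds TNC, had 387, 280 and 332 counts in control and 5, 6 and 3 in KO libraries (log2 fold change -6.19, standard error 0.28, adjusted p = 2.31e-10). ITGA8, whose integrin binds TNC, had 35, 23 and 36 counts in control but 0 in each KO library, at least 10.9-fold lower against 3 counts per library. Both passed the low-count filter only through their control libraries, so they had to be lower to be tested, and of the other 14 receptors 0 were called lower. The median over the 16 receptors includes both. The thrombospondin receptors differed in direction, and none was called with all 6 libraries. SDC4 (log2 fold change 0.83) and CALR (0.73) were higher and CACNA2D1 (-0.80) and LRP1 (-0.61) lower at an adjusted p under 0.05. CD36 had 76, 36 and 40 counts in control and 25, 40 and 17 in KO libraries (log2 fold change -0.97, standard error 0.42, adjusted p = 0.075). Without KO replicate 2, its highest KO library, it was called lower (-1.29, adjusted p = 0.0467). CD47 had 147 ± 13.3 and 148 ± 9.03 CPM (SD, n = 3; log2 fold change 0.01, standard error 0.09, adjusted p = 0.941). ITGAV, the partner of ITGB3, had a log2 fold change of -0.81 and ITGB5 one of 0.28, both with an adjusted p under 0.05 and under the fold change threshold.

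Of 13 genes of latent TGF-beta, all tested, 0 were called higher and 2 lower, where 12.6% of all tested genes were called, and the median log2 fold change was -0.44. At an adjusted p under 0.05 alone, which 41.6% of all tested genes had, 3 were higher and 7 lower. LTBP1, which tethers latent TGF-beta to the matrix, went from 292 ± 26.6 to 105 ± 1.93 CPM (SD, n = 3; log2 fold change -1.47). SMAD7, an inhibitory SMAD that TGF-beta induces, had a log2 fold change of -1.23, which was -0.88 with the chromosome median subtracted. The ligands TGFB1 and TGFB2 had log2 fold changes of -0.01 and -0.06 (adjusted p = 0.93 and 0.64).

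Of 15 genes of BMP signalling, the pathway that SMOC1 antagonizes, all were tested, 1 was called higher and 5 lower (5.45% and 7.14% of all tested genes), with a median log2 fold change of -0.78. The targets ID1, ID2, ID3 and SMAD6 were all called lower. ID3 had 2907, 3836 and 4438 counts in control and 497, 468 and 486 in KO libraries (log2 fold change -3.01, standard error 0.14, adjusted p = 2.38e-10). ID2 fell from 37.8 ± 3.90 to 5.20 ± 1.14 CPM (SD, n = 3; log2 fold change -2.86). SMAD6 had a log2 fold change of -1.97, the same as ID1, and no KO library of the 4 targets reached a control library. Groups that did not overlap were seen in 51.8% of all tested genes. ID1 and BMP6 (log2 fold change -1.93) lie outside the rule for named genes and are named because only 5 genes of this list were called lower. BMP6 had 46, 29 and 33 counts in control and 10, 2 and 17 in KO libraries, so its KO libraries alone would not have passed the filter. Without BMP6 the genes called lower were the 4 targets, and the median of the list includes it. The adjusted p of BMP6 was 0.0515 without control replicate 1. Its log2 fold change was -2.64 without KO replicate 3 and -1.43 without KO replicate 2. Among the antagonists NOG (noggin) rose from 4.29 ± 1.49 to 12.7 ± 1.495 CPM (SD, n = 3; log2 fold change 1.56, adjusted p = 5.26e-05), whereas GREM1 had a log2 fold change of -0.43. The receptors BMPR1A, BMPR2 and ACVR1 had log2 fold changes of -0.47, -0.78 and -0.58, each with an adjusted p under 0.05 and under the fold change threshold. Whether the level of SMOC1 bears on the BMP targets was not tested.

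**Figure D4:**
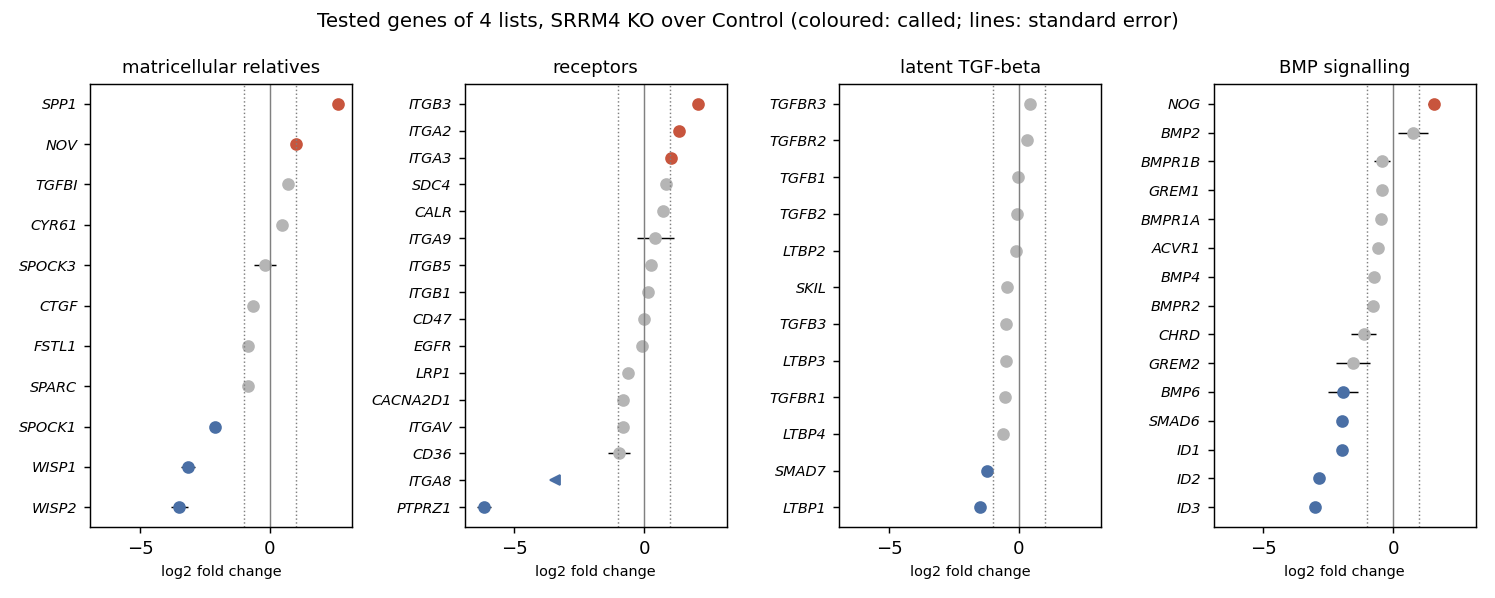
Log2 fold change of SRRM4 KO over control (horizontal axis) for tested genes of the 4 lists (1 uncalled gene of latent TGF-beta is not drawn), with standard errors as lines, called genes coloured and dotted lines at -1 and 1. The triangle of ITGA8 stands at its bound of 10.9-fold, and ID1, ID2, ID3 and SMAD6 lie left of -1 in the panel of BMP signalling.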

How the data were processed

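Non-stranded mRNA-seq libraries were made from UE7T-9 and SRRM4 KO cells. The authors deposited raw counts per gene without normalization. The submitters' processing notes name HISAT2 2.0.5, featureCounts 1.5.0-p3 and DESeq2, while the genome build, the annotation and the handling of multimapping reads are not given in the sources used here. All 58735 gene IDs were found in GENCODE 29 (GRCh38), 58724 with equal coordinates. Samples were grouped by their titles. No column was left without a sample.

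Counts were tested across all genes with edgeR 4.0.16 in R 4.3.3 (TMM, filterByExpr, prior count 0.125, Benjamini-Hochberg over 15341 genes). The standard error is the log2 fold change over the root of the F statistic. RPKM divides CPM by the deposited gene length. Promoters are RefSeq windows, found for all 10 members. Members and lists were chosen with earlier results of these data known. Named genes are the members, SRRM4, their overlapping genes of note, up to 3 called genes per list and direction by mean CPM, and the 2 genes most alike to each called member. SPARC, FSTL1, SPOCK3, TGFBI, TNR, TNN, COMP, MCAM, ENG, NT5E, ALCAM, VIM, CXCL12, SDC4, CALR, CACNA2D1, LRP1, CD36, CD47, ITGAV, ITGB5, TGFB1, TGFB2, GREM1, BMPR1A, BMPR2 and ACVR1 were added after their values were seen, as relatives or partners of members, as was TNXA. PECAM1, CDH5, KRT18, EPCAM, CD14, PTPRC and SOX10 are named as markers of other cell types, outside that rule. Some genes of the lists are counted but not reported here by name.

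Alternatives were DESeq2 size factors, upper-quartile scaling, testing without a filter, requiring 10 counts per library, DESeq2 1.42.0, the replicate number as a block, leaving out each library, no fold change threshold and subtraction of each chromosome's median. On simulated counts, edgeR made 9 false calls among 15016 genes and recovered 190 of the 200 given a log2 change of 2.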

Additional observations from a re-analysis of the deposited data

How the results depend on the processing

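The signs of the 8 tested members held under every alternative that gave a value, and the calls of SMOC1, TNC, POSTN, TNXB and THBS3 held under all 13. Their log2 fold changes ran from 2.12 to 2.27, 1.31 to 1.64, -3.79 to -3.38, -3.05 to -2.78 and -2.08 to -1.80. THBS1 stayed uncalled in these 13 (-0.32 to -0.22), and THBS2 was called in 1 of them, with the chromosome median subtracted (-1.03). Without a fold change threshold both were called, and 6 members were lower. THBS4 was no longer called without a filter (-1.63), with DESeq2 (-1.66), or with a library left out (-1.88 to -1.45), and with at least 10 counts in every library it was not tested. The cause of these lost calls was not tested, beyond its counts of 3 to 14 per library.

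With the replicate number as a block, THBS4 was lost (-1.65, adjusted p = 0.0945), no other member call changed, and 842 genes were higher and 1093 lower. The titles do not say whether libraries of the same number belong together. Deviations of same-numbered libraries from their group mean correlated at -0.086, 0.109 and -0.102, and control replicate 1 correlated best with KO replicate 3 (0.232). Deviations within a group depend on each other, so these values do not settle whether libraries were paired.

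Of the matricellular relatives 1 in place of 2 was called higher with upper-quartile scaling, with at least 10 counts in every library and with the chromosome median subtracted, and 1 to 2 with a library left out, since NOV lies at the threshold. With at least 10 counts in every library 0 receptors were called lower, because PTPRZ1 and ITGA8 were then not tested, and without KO replicate 2 there were 3, with CD36 gained. With the chromosome median subtracted, 1 gene of latent TGF-beta was called higher and 1 lower, and ITGA3 was lost among the receptors (2 in place of 3). Without a fold change threshold 3171 genes were higher and 3213 lower. The other lists then had 4 higher and 6 lower (relatives), 6 and 5 (receptors), and 3 and 7 (latent TGF-beta), and 10 genes of BMP signalling were lower. With 14 counts or fewer per library, the values of THBS4, SPARCL1 and SMOC2 carry a large counting error.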
